A study of Oryza sativa Japonica Group with 6 samples.

Results

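Among the genes measured in mature rice anthers, 21 were dim on every wild-type array and clearly brighter on every dao array. These genes were chosen by their measured signals: on the brightest probe set of a gene, all 3 wild-type signals lay at or under 20, all 3 dao signals at or over 30, and the lowest dao signal was at least 2 times the highest wild-type signal. They are 21 of 17905 genes that had a probe set annotated to that gene alone. The rule used the comparison of dao with wild type, so the levels and differences of the 21 genes are given as a description, without a test.

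The series compared anthers of Oryza sativa, Japonica group, from wild-type plants and from plants of the dao mutant. Both groups came from a japonica variety, were placed in the field to flower and were sampled as mature anthers at anthesis, with 3 arrays in each group numbered as biological replicates. The description field of the labels names 3-week-old seedlings, and for the mutant Epi-df seedlings, whereas the title, source and tissue fields name mature anthers. The labels and the design text do not describe the dao allele, nor how many plants went into a sample.

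DAO encodes a dioxygenase that oxidises the auxin indole-3-acetic acid, and thereby removes active hormone. Auxin acts in the anther on filament growth, pollen maturation and dehiscence, the opening that releases pollen. Transcript signal near the lower end of an array can come from a gene that is little transcribed, from a few cells of a type that transcribes it, or from probes that bind other transcripts, and in whole anthers fewer cells of a type and less RNA per cell cannot be told apart. The DAO signal was 480, 883 and 686 in wild type and 1551, 1168 and 1391 on the dao arrays. It was thus higher on the arrays labelled dao, and it does not check the labels, since neither the lesion nor where the probes bind is described. Directions are given for the arrays as labelled.

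The limit of 20 was not a detection limit. The median signal of an array lay between 8.82 and 9.33, and 63.4% to 63.6% of the probe sets on an array lay at or under 20, against 68.2% to 69.1% at or under 30. Detection calls were not used here, so whether the 21 genes were absent in wild type is unknown, and "switched on" would say more than these signals show. Of the 27 hybridization spike-in probe sets, which read control RNA put into the hybridisation mix, 27 read lower on each dao array than on any wild-type array (median log2 difference -0.38). This difference between the arrays coincides with the groups, and its part in the signals of the 21 genes was not tested.

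Dim genes mostly stayed dim. Of the 17905 genes, 4949 (27.6%) lay at or under 20 on all 3 wild-type arrays, and 4441 of these (89.7%) also lay at or under 20 on all 3 dao arrays. In 155 of the 4949 at least 1 dao signal reached 30, and in 30 all of them did. The 21 genes are those of the 30 that also kept the ratio of 2, or 0.424% of the dim genes. With the groups exchanged, the same limits found 4 genes, or 0.0843% of the 4745 genes at or under 20 on all dao arrays. More genes therefore met the limits upward than downward in dao. That direction was not particular to dim genes. Of all 15612 genes tested in the limma fit given below, 481 were called higher and 117 lower. The counts of 21 and 4 by the limits depended on the arrays numbered 2. These arrays held the lowest dao signal of 13 and the highest wild-type signal of 12 of the 21 genes. Leaving out an array can only keep or raise the counts by the limits, since the rule uses the highest and lowest signals. Without dao replicate 2 the counts were 52 upward and 7 downward, without wild-type replicate 2 they were 38 and 21, and without both arrays they were 79 and 25. The upward count was the larger under each of these settings.

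**Figure D1:**
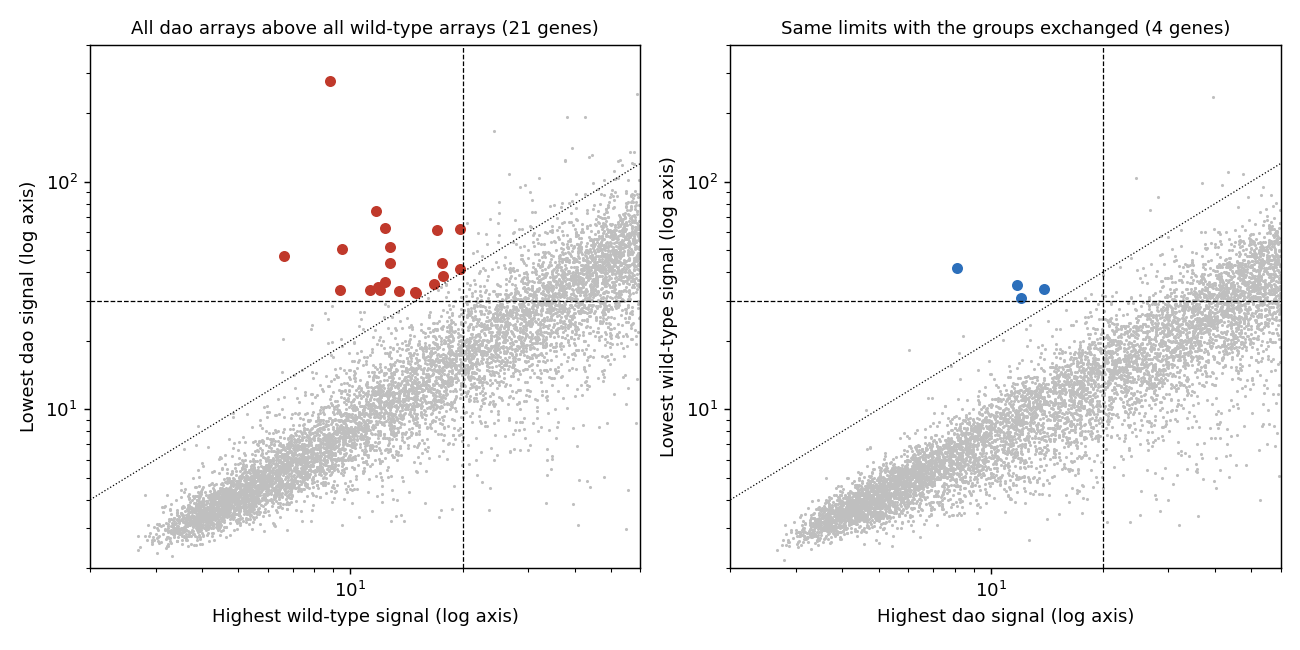
Each grey point is a gene, placed by the highest signal in one group and the lowest signal in the other, both on log axes, with dashed lines at 20 and 30 and a dotted line at the ratio of 2. The 21 genes (red, left) lie up to a lowest dao signal of 276, and the 4 genes of the exchanged limits (blue, right) have lowest wild-type signals of 31.0 to 41.8; grey points beyond the edges are not drawn.

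The gene that stood farthest out was LOC4331398 on chromosome 3. Its signal was 8.81, 3.72 and 5.26 in wild type and 398, 276 and 344 on the dao arrays. The lowest dao signal was 31.3 times the highest wild-type signal, where the next gene reached 7.14 times. The means were 5.93 ± 2.61 and 339 ± 61.3 (SD, n = 3 each), a 57.3-fold difference, which is 5.91 on the log2 scale. LOC4331398 carries no gene name or description in the tables used here, so no role is given to it. It had a further probe set, which read 5.02, 3.66 and 3.93 in wild type and 197, 124 and 174 on the dao arrays. This probe set also met all 3 limits, and both probe sets ordered the dao arrays in the same way, with replicate 1 highest and replicate 2 lowest.

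LOC4343713 on chromosome 7 came next. Its signal was 5.12, 6.63 and 6.56 in wild type and 176, 47.3 and 109 on the dao arrays. The wild-type values lay close together, and the dao values spanned 3.71 times from replicate 2 to replicate 1. The means were 6.10 ± 0.855 and 111 ± 64.1 (SD, n = 3 each), with a log2 difference of 3.995.

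**Figure D2:**
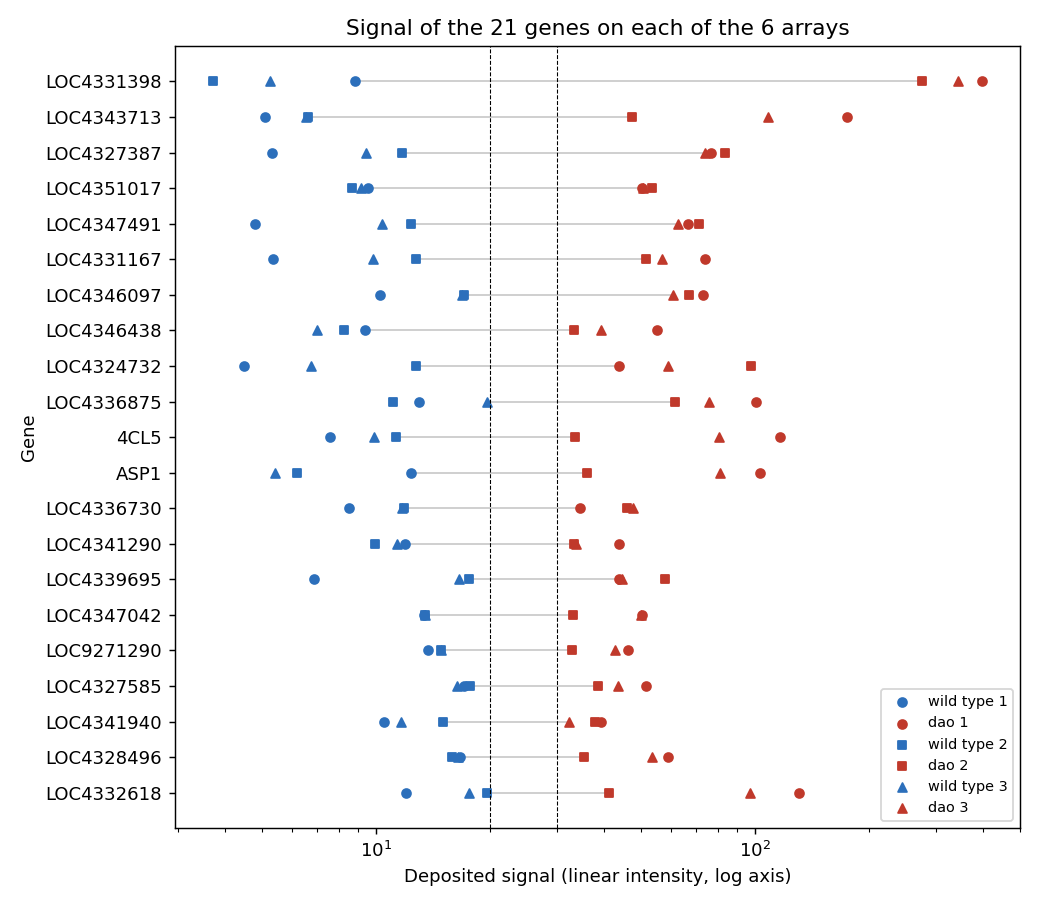
Signal of each of the 21 genes on the 6 arrays, on a log axis, ordered by the ratio of the lowest dao to the highest wild-type signal, with dashed lines at 20 and 30. LOC4331398 stands apart at the top with dao signals of 276 to 398, and 4CL5 and ASP1 show wide dao spreads.

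Only 2 of the 21 genes carry a gene name, 4CL5 and ASP1. 4CL5 (LOC4345717, chromosome 8) encodes a 4-coumarate:CoA ligase, an enzyme of the phenylpropanoid pathway that activates coumarate and related acids for lignin and flavonoid synthesis. Its signal was 7.59, 11.3 and 9.91 in wild type and 117, 33.6 and 80.6 on the dao arrays. The groups did not overlap, although dao replicate 2 lay only just above the limit of 30. The dao mean was 8.01 times the wild-type mean.

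Of the other measured genes of this enzyme family only 4CL1 was dim in wild type by the limit of 20. 4CL2 had means of 45.2 ± 5.19 and 53.7 ± 4.82, 4CL4 of 152 ± 27.1 and 287 ± 110, and 4CL3 of 37.5 ± 16.1 and 122.8 ± 43.8 (wild type and dao, SD, n = 3 each). The limma adjusted p was 0.343 for 4CL2, 0.107 for 4CL4 and 0.0254 for 4CL3, so that of these only 4CL3 passed (log2 1.73). 4CL1 lay between 3.92 and 4.51 on all 6 arrays and was too dim for the test. Of the upstream phenylalanine ammonia-lyases, which make cinnamate from phenylalanine, PAL passed (log2 1.10, adjusted p = 0.0384 in limma). PAL06 read 4.14, 5.54 and 3.995 in wild type and 52.8, 7.27 and 26.8 on the dao arrays. It lay under 20 on all wild-type arrays but reached 30 on 1 dao array only, and so did not meet the rule.

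ASP1 (LOC4349962, chromosome 11), also called OSAP1, encodes an aspartic protease, a class of protein-cleaving enzymes. Its signal was 12.4, 6.20 and 5.43 in wild type and 103, 36.2 and 80.9 on the dao arrays. As in 4CL5, replicate 1 was the highest and replicate 2 the lowest of the dao arrays. The dao mean was 9.17 times that of wild type. A further probe set of ASP1 lay between 2.59 and 3.45 on all 6 arrays.

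Several unnamed genes stood at a nearly equal level on all dao arrays. LOC4351017 on chromosome 11 read 9.52, 8.63 and 9.12 in wild type and 50.3, 53.7 and 50.9 on the dao arrays, the narrowest dao spread of the 21 genes (SD of 0.05 on the log2 scale). LOC4327387 on chromosome 1 read 5.32, 11.7 and 9.40 in wild type and 76.6, 83.6 and 74.0 on the dao arrays. LOC4347491 on chromosome 9 read 4.79, 12.4 and 10.4 in wild type and 66.6, 71.4 and 62.7 on the dao arrays. On the log2 scale the SD was larger in wild type than in dao in each of these genes, while on the signal scale it was smaller. In the last 2 genes wild-type replicate 1 was the lowest, and their log2 differences were 3.22 and 2.97, against 2.51 for LOC4351017. LOC4346097 on chromosome 8 read 10.3, 17.1 and 16.9 in wild type and 73.2, 67.0 and 61.0 on the dao arrays.

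The other genes among the 10 with the widest gap between groups varied more across the dao arrays than the genes just named did. By the SD on the log2 scale, wild type still varied more than dao in LOC4331167, LOC4336875 and LOC4324732, and less in LOC4346438. LOC4331167 on chromosome 2 read 5.35, 12.7 and 9.85 in wild type and 74.1, 51.6 and 56.9 on the dao arrays. LOC4346438 on chromosome 9 read 9.38, 8.27 and 7.01 in wild type and 55.4, 33.3 and 39.4 on the dao arrays. In both, dao replicate 1 was the highest. LOC4336875 on chromosome 4 read 13.0, 11.1 and 19.7 in wild type and 101, 61.8 and 75.9 on the dao arrays, so that its highest wild-type signal lay just under the limit of 20. LOC4324732 on chromosome 1 went the other way among the dao arrays. It read 4.48, 12.8 and 6.75 in wild type and 43.8, 98.0 and 59.0 on the dao arrays, with replicate 2 the highest in both groups.

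Near the limits, small shifts decided membership. LOC4332618 on chromosome 3 read 12.0, 19.7 and 17.6 in wild type and 131, 41.2 and 97.3 on the dao arrays, and its lowest dao signal was 2.10 times its highest wild-type signal. LOC4328496 on chromosome 2, at 2.12 times, read 16.7, 15.9 and 16.5 in wild type and 59.1, 35.5 and 53.5 on the dao arrays. Just outside that ratio lay LOC4350975 and LOC4325960, at 1.97 and 1.96 times, among 9 genes that missed it alone. In LOC4332618 it was replicate 2 that lay at the limit on both sides, as its highest wild-type and its lowest dao signal.

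The lowest dao signals inside the rule belonged to LOC4341940 and LOC9271290. LOC4341940 on chromosome 6 read 10.5, 15.02 and 11.7 in wild type and 39.3, 38.0 and 32.4 on the dao arrays. LOC9271290 on chromosome 8 read 13.7, 14.9 and 14.9 in wild type and 46.3, 32.9 and 42.8 on the dao arrays. Just outside lay LOC4348974 and LOC4347417, with lowest dao signals of 29.0 and 28.5, among 22 genes that missed the limit of 30 alone. On the wild-type side the rule was most restrictive, since 94 genes missed the limit of 20 alone, the nearest being LOC4338739 and LOC4324858, whose highest wild-type signals were 20.6 and 21.4. The remaining genes of the 21 were LOC4336730, LOC4341290, LOC4339695, LOC4347042 and LOC4327585, with wild-type signals from 6.88 to 17.7 and dao signals from 33.2 to 57.9.

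Over the 21 genes the log2 difference ran from 1.38 to 5.91 with a median of 2.35, where the median over the 15612 genes tested was 0.11. The dao means ran from 36.6 to 339 with a median of 60.9, and the wild-type means from 5.93 to 17.1 with a median of 10.7. LOC4331398 and LOC4343713 were the genes with a dao mean over 100.

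In a limma fit over all probe sets, a gene was called where it differed at least 2-fold with an adjusted p of at most 0.05. All 21 genes were tested and 21 were called higher in dao, against 3.08% of all genes tested. Nothing is read from this count, since the genes were chosen on the same contrast and the fit adds no samples. Of the 21, 19 would have passed the filter on signal by their wild-type mean alone, since it removed only probe sets with a mean signal under 6.33. The calls rested on the arrays numbered 3. Without both of them limma called 0 of the 21 and 0 of all genes, while 21 and 1916 had an unadjusted p under 0.05 and the lowest adjusted p was 0.163. With log2 of the signal plus 32, which shrinks differences of dim genes, 12 of the 21 were called.

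In most of the 21 genes, as in most genes tested, the third array lay between the other 2. On the dao side this held for 16 of 21 (76.2%) and on the wild-type side for 15 of 21 (71.4%), against 62.7% and 59.6% of all genes tested. Among the dim genes the shares were 43.9% and 39.9%. The order replicate 1, replicate 3, replicate 2 from high to low was found on the dao arrays in 13 of the 21 (61.9%) and in 43.6% of the genes tested. Whether the third arrays are independent of the others was not tested.

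The 21 genes differed in how far the dao arrays spread. In 12 the highest dao signal was under 1.5 times the lowest, in 4 it was 1.5 to 2 times, and in 5 it was at least 2 times. Those 5 were LOC4343713, 4CL5, LOC4332618, ASP1 and LOC4324732. In all of them but LOC4324732 replicate 1 was the highest and replicate 2 the lowest. Dao replicate 1 was at least 2 times replicate 2 in these 4 genes, or 19.0% of the 21, and in 3.05% of the genes tested.

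The summed markers of green tissue and of the tapetum followed the same order on the dao arrays, and so did the vascular and secondary wall sum given below. The summed signal of the 3 measured green-tissue markers, CAB2R, RBCS and RCA, was 2707, 1294 and 1775 in wild-type replicates 1, 2 and 3 and 4156, 1051 and 3096 in the dao replicates of the same numbers. In wild type it was thus highest on replicate 1, where ASP1 was at its highest and 4CL5, LOC4343713 and LOC4332618 were at their lowest. The 3 genes encode a chlorophyll-binding protein, the small subunit of Rubisco and Rubisco activase. The tapetum is the cell layer that feeds the pollen, and 10 measured genes matched its list by symbol or synonym. Their sum was 2880, 2767 and 2811 in wild type and 6604, 2716 and 5480 on the dao arrays. Most of it came from RTS, at 1684, 1629 and 1676 in wild type and 4684, 1541 and 3822 on the dao arrays. None of the green-tissue or tapetum genes passed the test, and 3 of the tapetum genes, among them CYP703A3 and PTC1, lay at or under 20 on all 6 arrays. These values move with the signals of 4CL5, ASP1, LOC4343713 and LOC4332618 across the dao arrays, and their part in the result was not tested.

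**Figure D3:**
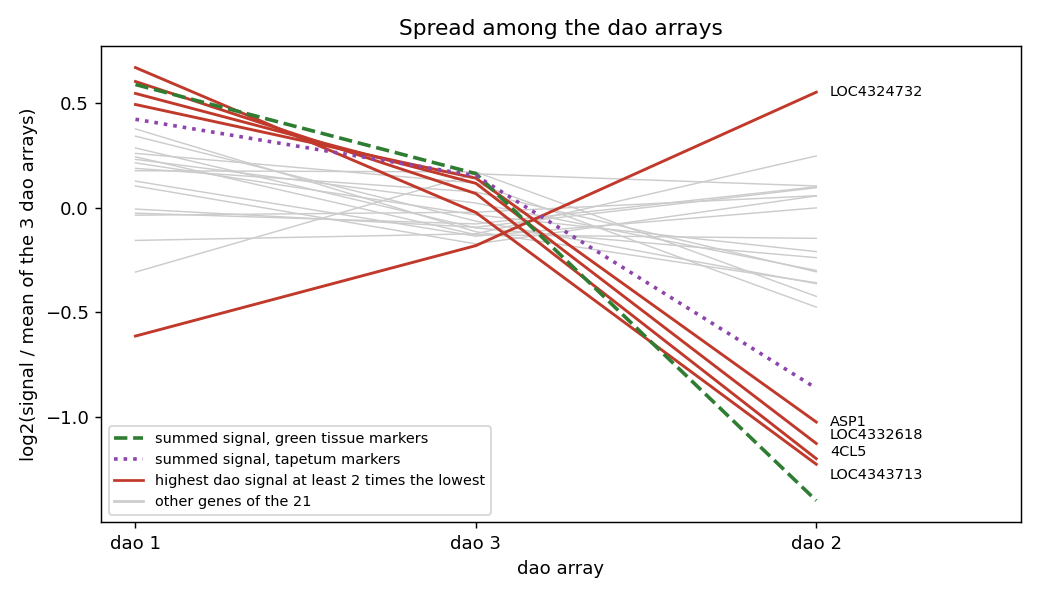
Signal of the 21 genes on each dao array, as log2 of its ratio to the mean of the 3 dao arrays, with the 5 genes of widest spread in red and the summed green-tissue and tapetum markers dashed and dotted. LOC4343713, 4CL5, LOC4332618 and ASP1 fall from replicate 1 to replicate 2 as the marker sums do, and LOC4324732 runs the other way.

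The other 4 marker lists differed among themselves. The summed signal of 5 mature pollen genes, which include the beta-expansins EXPB9 and EXPB10, was 33278 to 35724 in wild type and 29543 to 31042 on the dao arrays, lower without overlap, and none passed the test. The pistil and carpel sum was 515 to 766 in wild type and 761 to 787 on the dao arrays, mostly from MADS58 (490 to 744 and 717 to 743). Of its 4 genes only MADS13, an ovule identity gene, passed. MADS13 read 5.49, 6.58 and 6.47 in wild type and 29.4, 20.4 and 26.1 on the dao arrays, and fell short of the limit of 30. The carpel gene DL lay between 11.7 and 16.7 on all 6 arrays. Of 7 endosperm storage genes 6 lay at or under 20 on all 6 arrays, and the sums overlapped (498 to 543 and 447 to 645). The sum of 7 vascular and secondary wall genes was 173, 236 and 200 in wild type and 417, 286 and 338 on the dao arrays. It was higher in dao without overlap, with 4CL3 the only one called. On the dao arrays it was highest on replicate 1 and lowest on replicate 2, in the order of the green-tissue and tapetum sums. The pollen, pistil and endosperm sums did not have that order. None of the 21 genes is in these lists, and their part in the result was not tested.

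For 7 of the 21 genes the array held further probe sets, 10 in all. The further probe set of LOC4331398 differed much as the brightest one did (log2 5.28). The other 9 probe sets, of 6 genes, stayed at or under 11.1 on all dao arrays, with log2 differences from -0.22 to 0.32. These 6 genes were ASP1, LOC4346438, LOC4341290, LOC4341940, LOC9271290 and LOC4327585. The difference of each thus rested on 1 probe set of 2 or 3. With all probe sets of a gene averaged, the log2 difference of ASP1 was 1.64 in place of 3.17, and that of LOC9271290 was 0.49 in place of 1.47. On that measure 15 of the 21 met the rule, and 3 other genes did.

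Such disagreement was not limited to the 21 genes. Of 97 other genes that were called higher and had several probe sets, 29 (29.9%) had another with a log2 difference of at least 1, and 54 had another at or under 20 on all dao arrays. Among the 7 genes here, 1 had another probe set with such a difference. Probe sets whose names end in _s_at can hybridise to several transcripts, and those used for LOC4331398, ASP1, LOC4336730 and LOC4341940 were of this kind. The place of each probe set in its transcript was not used here. The other 14 genes were read by 1 probe set each.

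**Figure D4:**
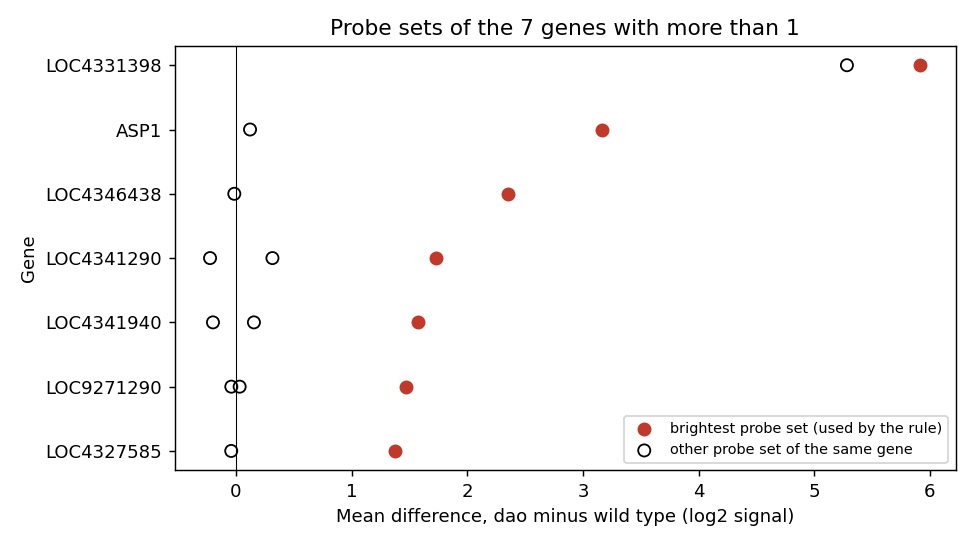
Mean difference between dao and wild type, as log2 signal, for the brightest probe set (red) and the other probe sets (open circles) of the 7 genes with more than 1. In LOC4331398 both probe sets exceed 5, and in the other 6 genes the other probe sets lie between -0.22 and 0.32.

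The 21 genes were spread over the genome and no pair of them was close together. They lay on 10 chromosomes, with 3 each on chromosomes 1, 8 and 9, and none on chromosomes 10 and 12, where 298 and 258 dim genes were measured. The share of dim genes that met the rule was highest on chromosome 9, at 1.05% of 286. The closest pair, LOC4327585 and LOC4327387 on chromosome 1, was 106 places apart in the order of genes. All 21 are annotated as protein-coding.

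Some of the genes beside them were also called. Within 3 places on either side 64 neighbours were measured, of which 4 were called higher (6.25%, against 3.08% of all genes tested). The 2 shares differ in base, since the 64 include genes too dim for the test, such as LOC4331170 and GRF12. Among the 64, 1 was called lower, and the median log2 difference was 0.05. Of the 25 neighbours directly beside one of the 21 genes, 3 were called higher. These counts are a description and were not tested. The neighbour next to LOC4331398, LOC4331397, was called and read 46.9, 98.2 and 80.8 in wild type and 207, 121 and 172 on the dao arrays. LOC4343712, next to LOC4343713, was called with a log2 difference of 1.06, and NAC071, a transcription factor gene of the NAC family next to ASP1, with one of 1.15. LOC4331166, 2 places from LOC4331167, was called with a log2 difference of 1.61. None of these 4 neighbours was dim in wild type, with all signals over 30.

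On the other side stood the surroundings of LOC4336875. AOX1, which encodes an alternative oxidase of mitochondrial respiration, is the gene next to it and read 1156, 36.3 and 535 in wild type and 131, 77.6 and 115 on the dao arrays. The groups overlapped and AOX1 did not pass. LOC4336872, 3 places away, was called lower, at 295, 85.4 and 145 in wild type and 28.1, 20.8 and 20.3 on the dao arrays. LOC4336875, higher in dao, thus lies near a gene that fell.

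**Figure D5:**
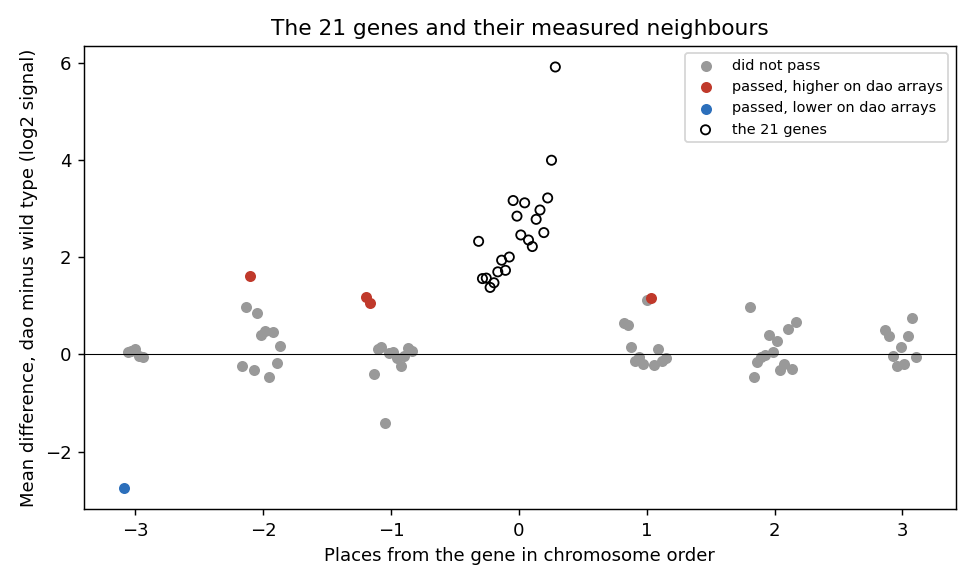
Mean difference between dao and wild type, as log2 signal, of the 21 genes (open circles) and of the 64 measured neighbours within 3 places in chromosome order, offset sideways for clarity. Most neighbours lie near 0, with 4 called higher (red) and 1 called lower (blue, at -2.75).

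Few of the 21 genes fell into known families. In 22 families found by gene name 319 genes were measured, 109 of them at or under 20 on all wild-type arrays, and 1 of these, 4CL5, met the rule. At the share of 0.424% over all dim genes, families of this size would rarely hold a member, so nothing is read from a count of 0. The 8 dim genes of the Aux/IAA family, whose products repress the response to auxin, included none of the 21. Neither the 11 dim MADS-box genes nor the 24 dim homeobox genes, both families of developmental regulators, nor the 18 dim cytochrome P450 genes held one. No gene of the GH3, SAUR, auxin carrier, auxin response factor, YUCCA and TAR, or amidohydrolase families met the rule either. The families depend on gene names, which 9.52% of the 21 genes, 11.2% of the dim genes and 13.5% of all measured genes carry, so a family member without a name was not counted.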

How the data were processed

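The authors deposited 1 linear signal intensity per probe set and array. The submitters' processing notes name MAS5, without version or settings, and do not describe background correction or scaling. Of 57381 probe sets, 123 controls were left out. The gene table gave exactly 1 gene for 22436 of the others, and all names came from RefSeq's gene table of assembly ASM3414082v1, used for names, chromosomes and gene order only. Each gene was represented by the probe set with the highest mean log2 signal.

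The 2 groups were compared in limma 3.58.1 (R 4.3.3) on log2 of the deposited intensities, with group as the only term, a trend on the mean signal, and probe sets under the 40th percentile of mean signal left out. Adjustment was Benjamini-Hochberg over 34355 probe sets. The fit was also run on data simulated from the means and spreads of these arrays, and the outcome is not given here. The number of arrays, 3 a group, limits the precision. Members, gene lists (22 families, 6 marker lists) and tests were chosen with earlier results of these data known. Members with a name, the 10 with the widest gap between groups, the 5 brightest in dao and those nearest each limit were named with their values. Neighbours, other probe sets and genes of the marker lists and of the 4CL and PAL families were named after their values were seen. Alternatives were other filters, scalings, an offset, the limits of the rule, the mean of probe sets, a replicate block and left-out arrays. The labels call the replicates biological and do not say whether they came from separate plants, so p-values measure the spread between these samples. Sequences of the genes were not analysed here.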

Additional observations from a re-analysis of the deposited data

How the results depend on the processing

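Quantile and median scaling left the count at 21 with the same 21 genes, and 4 with the groups exchanged. Stricter limits (15, 40 and 3 times) gave 7 genes upward, 1 downward and a median log2 difference of 3.12, and looser limits (25, 25 and 1.5 times) gave 78, 15 and 1.63. Leaving out 1 array, which can only keep or raise the counts, gave 23 to 52 genes upward, 4 to 21 downward and medians from 1.84 to 2.37. Without both arrays numbered 2 the values were 79, 25 and 1.95, and without both numbered 1 the median was 1.75. In limma 598 genes passed, 217 with log2 of the signal plus 32, 166 without wild-type replicate 3, 176, 362 and 912 without dao replicates 3, 1 and 2, 1176 without both arrays numbered 2 and 0 without the pair numbered 3. Of the 21 genes 15 to 21 passed without 1 array, 12 with the offset and 0 without both arrays numbered 3. The causes were not tested. With the replicate number as a block 584 genes and 21 of the 21 passed. Same-numbered arrays deviated from their group means with correlations of 0.25, 0.18 and 0.09. The third was under 0.1, and wild-type array 3 correlated more with dao array 2 (0.13). Whether same-numbered arrays share more than the number was not tested. Of 210 log2 differences of the 21 genes under 10 settings, 0 changed sign. Nothing is read from that, since the rule fixed the sign in advance wherever an array was left out or the offset was added. Of the 210, 183 moved by less than the spread between replicates and 27 by more, 21 of them with the offset and 6 with the mean of probe sets.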

Other observations

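The limits were also met by probe sets outside the 21 genes. Over all 57258 probe sets that are not controls, 36 met them upward and 13 with the groups exchanged. Of the 36, 12 were not paired with exactly 1 gene, and the one with the widest gap between groups read 14.3, 16.5 and 13.9 in wild type and 206, 130 and 167 on the dao arrays. A further 2 probe sets belonged to genes whose brightest probe set did not meet the rule. For LOC4349190 the dimmer probe set read 12.0, 15.3 and 10.2 in wild type and 66.8, 43.6 and 56.7 on the dao arrays, while its brightest one had a log2 difference of 0.61. For LOC4334014 the dimmer probe set read 10.3, 14.1 and 13.6 in wild type and 39.8, 39.5 and 40.3 on the dao arrays, and its brightest one differed by 1.17.

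The 4 genes of the exchanged limits were LOC4339187, LOC4342716, LOC4340424 and LOC4334017, none with a gene name. LOC4339187 read 52.0, 41.8 and 55.6 in wild type and 4.40, 8.12 and 4.65 on the dao arrays. LOC4342716 and LOC4340424 varied in wild type, at 106, 35.2 and 64.6 and at 104, 31.0 and 60.5, with replicate 1 the highest and replicate 2 the lowest in both.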
